A study of Mus musculus with 8 samples.

Results

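The carboxylesterases of mouse liver described here are 10 genes, Ces1b, Ces1c, Ces1d, Ces1e, Ces1f, Ces1g, Ces2a, Ces2e, Ces3a and Ces3b, out of 19540 genes measured on the arrays. They were taken by symbol from the platform annotation, and each was represented by 1 probe set that lists no other gene, so 0 member probe sets were ambiguous. Expression was measured in liver total RNA on 8 Affymetrix whole-transcript arrays. Of these, 4 carry the genotype HNF6KO (livers depleted of HNF6) and 4 the genotype WT. Both groups are male mice of strain C57B/6, 12 weeks old, on normal chow and a light/dark schedule. Liver was taken at ZT10 (5 pm), and no treatment is named in what was used here. The labels used here name neither the HNF6KO allele, nor a Cre driver or vector, nor the animals behind each array. The p-values therefore cover the spread between these arrays alone, which may be technical. HNF6 is a homeodomain transcription factor encoded by Onecut1. The comparison asks how transcripts differ at this time of day between livers labelled as depleted of it and WT livers.

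Carboxylesterases are serine hydrolases of the endoplasmic reticulum that split ester, amide and thioester bonds. In liver they hydrolyse stored triglyceride and other lipid esters and activate or clear ester drugs. Family 1 enzymes are best known for triglyceride turnover and lipoprotein assembly, and mouse family 2 enzymes for splitting di- and monoacylglycerols. The mouse genes lie in tandem clusters on chromosome 8, where near-identical copies can share signal on an array, so the member behind a signal is uncertain where paralogs are close.

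The promoters of members can also be compared, though they do not show how alike the probed transcripts are. The RefSeq table (GRCm38.p6, 250 bases before to 50 after each annotated start) held windows for 7 of the 10 members. The neighbours Ces1b and Ces1c are shown because their windows were the most alike among members. Ces2e and Ces2a are shown as the pair with the next longest shared run. The windows are chr8:93079891-93080190 (Ces1b, minus strand, 1 of its annotated starts), chr8:93131234-93131533 (Ces1c, minus strand), chr8:104926010-104926309 (Ces2e, plus strand) and chr8:104733753-104734052 (Ces2a, plus strand). Capitals mark the longest run of bases that both windows of a pair share.
Ces1b: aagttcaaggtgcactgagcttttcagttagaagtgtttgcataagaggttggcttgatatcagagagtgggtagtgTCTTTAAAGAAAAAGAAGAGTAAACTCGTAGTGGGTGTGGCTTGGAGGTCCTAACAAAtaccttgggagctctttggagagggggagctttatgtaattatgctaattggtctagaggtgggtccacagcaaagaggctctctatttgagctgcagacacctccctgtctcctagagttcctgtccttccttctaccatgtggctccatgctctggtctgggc
Ces1c: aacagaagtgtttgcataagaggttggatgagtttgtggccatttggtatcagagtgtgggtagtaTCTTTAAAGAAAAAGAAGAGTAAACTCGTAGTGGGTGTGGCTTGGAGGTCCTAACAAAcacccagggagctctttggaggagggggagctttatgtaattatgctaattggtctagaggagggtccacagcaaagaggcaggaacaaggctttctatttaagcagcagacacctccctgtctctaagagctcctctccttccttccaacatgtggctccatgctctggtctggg
Ces2e: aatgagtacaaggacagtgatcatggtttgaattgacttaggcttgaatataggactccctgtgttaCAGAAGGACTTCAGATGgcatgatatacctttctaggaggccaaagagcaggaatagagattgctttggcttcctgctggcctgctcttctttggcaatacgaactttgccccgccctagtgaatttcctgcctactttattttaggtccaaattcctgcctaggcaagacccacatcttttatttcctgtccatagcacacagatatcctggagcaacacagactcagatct
Ces2a: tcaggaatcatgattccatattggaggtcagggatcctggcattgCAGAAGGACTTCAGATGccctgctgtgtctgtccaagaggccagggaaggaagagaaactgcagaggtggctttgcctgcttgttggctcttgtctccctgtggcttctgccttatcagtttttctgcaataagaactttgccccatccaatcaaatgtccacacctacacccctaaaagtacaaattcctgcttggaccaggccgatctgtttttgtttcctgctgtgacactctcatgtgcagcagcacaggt
The shared run was 58 bases in Ces1b and Ces1c, starting at base 78 of the Ces1b window and base 67 of the Ces1c window. These windows were identical at 254 of 273 aligned bases (93.0%). Ces2e and Ces2a shared a run of 17 bases and 195 of 261 aligned bases (74.7%), which is no more than some pairs from different families reached in these free-end alignments (up to 78.7% over 61 aligned bases for Ces1b and Ces3b, whose shared run was 10 bases). The HNF6 core letters ATCGAT and ATTGAT, read on both strands, were in 0 of the 8 member windows, while 0.925% and 7.54% of all 32851 windows in the table hold them. The HNF4 letters CAAAGTCCA were also in 0 of the 8, against 0.475% of all windows, as was the HNF1 palindrome, against 0.00913%. Variants of the HNF6 letters, such as ATTGAC, were not searched, and the Ces2e window printed above holds ATTGAC. The counts describe only the searched letters in these windows and say nothing of other forms or of sites elsewhere.

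None of the 10 carboxylesterases passed an adjusted p of 0.05 between HNF6KO and WT livers, and those nearest to it lay in both directions. Values are the deposited ones, read as log2, and changes are HNF6KO minus WT from limma, with Benjamini-Hochberg adjustment over all genes. In all, 0 members passed, where 0.399% of genes did (78 of 19540, and between 16 and 79 genes with 1 array left out, fewest without WT array 2). At an unadjusted p of 0.05 there were 5 of 10, with Ces1b, Ces2e and Ces3b higher and Ces1f and Ces3a lower, where 9.51% of all genes met that rule (4.3% higher and 5.21% lower). Members are bright, and among the 1252 genes at least as bright as the dimmest member the share was 18.1%. The 4 HNF6KO arrays lay wholly on one side of the 4 WT arrays for 3 members (Ces1b and Ces3b above, Ces3a below), where this was so for 5.67% of all genes (2.45% higher and 3.21% lower) and 11% of the equally bright ones. After quantile normalization or cyclic loess only Ces3b of the members still had groups that did not overlap, where 6.58% and 6.70% of all genes did. The median change of the members was 0.19 on the log2 scale, with 7 above 0 and 3 below, against a median of -0.01 over all genes. Without WT array 4, the lowest WT array for every member but Ces1b and Ces3b, the members' median was 0.07. With array quality weights it was 0.09, and within arrays 1 and 2 it was 2.97e-04. Regardless of sign the median size was 0.28 for members, 0.06 for all genes and 0.09 for equally bright genes.

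**Figure D1:**
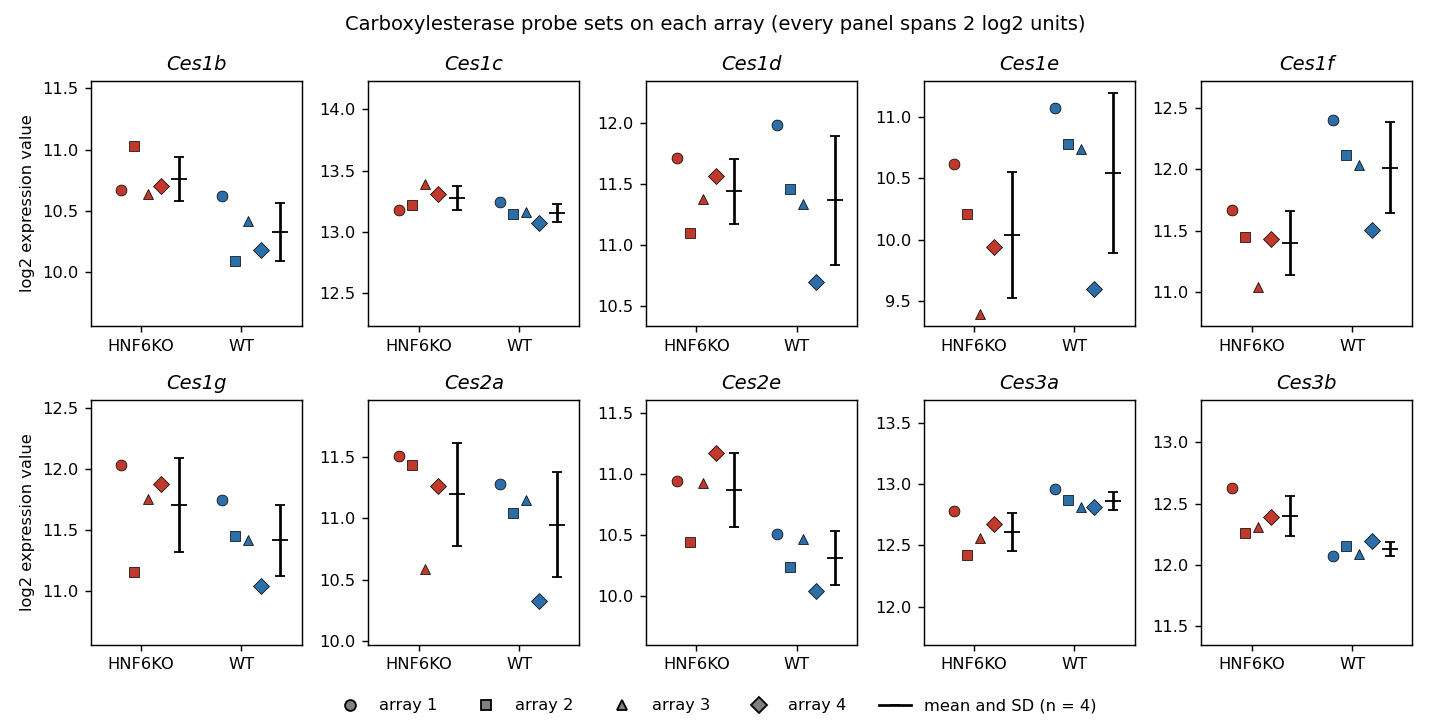
Log2 expression value (y axis) of each member's probe set on the 4 HNF6KO and 4 WT arrays, with 1 symbol per array number and the mean and SD (n = 4) beside each group. All HNF6KO arrays lie above all WT arrays for Ces1b and Ces3b and below them for Ces3a. WT array 4 is the lowest WT array for every member but Ces1b and Ces3b, though only just so for Ces3a.

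Onecut1 fell in the HNF6KO livers, as the labels state. Its log2 values were 9.32, 9.05, 8.67 and 8.70 on HNF6KO arrays 1 to 4, against 10.17, 9.87, 10.45 and 10.52 on WT arrays 1 to 4 (log2 change -1.32, limma, adjusted p = 0.0273). This call was lost without WT array 1, 3 or 4 or without HNF6KO array 3 or 4 (log2 change -1.34 to -1.23, limma, adjusted p 0.0633 to 0.0954), and in the plain two-sample test (adjusted p = 0.194). Within arrays 1 and 2 the change of Onecut1 was -0.83 (adjusted p = 0.171), and within arrays 3 and 4 it was -1.80 (adjusted p = 0.00140). The HNF6KO mean of Onecut1 was 8.93, still above the median of 6.96 over all genes, so its signal was reduced and not absent. The stretch of Onecut1 that the probes read is unknown here, so the labels are checked only as far as that stretch is affected. Hepatocyte markers were high on all arrays: 7 of 8 listed were measured, and their mean log2 value ran from 13.67 to 13.78 on HNF6KO arrays and 13.65 to 13.71 on WT arrays. With each group's mean taken out, the first principal component held 47.1% of the variance and split arrays 1 and 2 from arrays 3 and 4 in both groups. Of the lists of other cell types, the 7 Kupffer cell markers moved most along that split, with a mean log2 value of 7.95 and 9.14 on HNF6KO arrays 1 and 2 and 3 and 4, and of 8.04 and 8.79 on the same WT arrays. The log2 of their summed level ran from 10.77 to 12.45 in HNF6KO and 10.69 to 12.12 in WT. Across Kupffer, endothelial, stellate, cholangiocyte, pancreas acinar and adipocyte markers 0 passed the test, and none is listed at 0. At an unadjusted p of 0.05 in limma, 2 of 4 adipocyte markers were lower, where 5.21% of all genes were, and 0 markers of the other types met it. All 7 Kupffer and all 5 endothelial markers had a change above 0, where 8318 of 19540 genes did, and all 3 acinar markers one below. The part of the split between arrays 1 and 2 and arrays 3 and 4 in the results below was not tested. In bulk liver, fewer cells of a type and less RNA per cell cannot be told apart.

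In family 1, the gene furthest above its WT level was Ces1b and the gene furthest below was Ces1f. Ces1b had log2 values of 10.67, 11.03, 10.64 and 10.70 on HNF6KO arrays 1 to 4, against 10.62, 10.09, 10.41 and 10.18 on WT arrays 1 to 4. The groups did not overlap, but HNF6KO array 3 and WT array 1 were only just apart. The log2 change was 0.43 ± 0.13 (SE, n = 4 per group), or 1.35-fold, with a 95% confidence interval of 0.14 to 0.72 (limma, unadjusted p = 0.00822, adjusted p = 0.291). Ces1c, which encodes the esterase secreted into rodent plasma, is the next gene along and carries the near-identical promoter shown above. Its values of 13.18, 13.22, 13.39 and 13.31 in HNF6KO, against 13.24, 13.14, 13.16 and 13.07 in WT, overlapped. The change of Ces1c was 0.12 ± 0.06 (interval -0.02 to 0.26, adjusted p = 0.596). The difference between the 2 neighbours' changes was not tested.

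Ces1f encodes a liver enzyme also named TGH-2, a relative of the triglyceride hydrolase. Its log2 values were 11.67, 11.45, 11.04 and 11.43 on HNF6KO arrays 1 to 4, against 12.40, 12.11, 12.04 and 11.51 on WT arrays 1 to 4. WT arrays 1 to 3 lay above every HNF6KO array, and WT array 4 lay within the HNF6KO range. The change was -0.62 ± 0.19, or 1.54-fold lower, with an interval of -1.05 to -0.19 (limma, unadjusted p = 0.00998, adjusted p = 0.308). Without WT array 4 it was -0.79 (adjusted p = 0.110). Ces1e encodes egasyn, which holds beta-glucuronidase in the endoplasmic reticulum. It had 10.62, 10.21, 9.39 and 9.94 in HNF6KO livers, against 11.07, 10.78, 10.74 and 9.59 in WT livers. Again WT array 4 was the lowest of its group, and the groups overlapped only through it. The change of Ces1e was -0.51 ± 0.34 (interval -1.28 to 0.27, adjusted p = 0.721), and it moved with single arrays: it was -0.82 without WT array 4 (adjusted p = 0.349), -0.33 without WT array 1 (0.925) and -0.29 without HNF6KO array 3 (0.960).

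Ces1d and Ces1g, the family 1 genes with the best known roles in lipid metabolism, did not pass and were wide in spread. Ces1d encodes the triglyceride hydrolase TGH, which draws on stored triglyceride for very low density lipoprotein. Its log2 values were 11.72, 11.10, 11.38 and 11.57 in HNF6KO, against 11.98, 11.46, 11.33 and 10.70 in WT. WT arrays 1 and 4 enclosed all 4 HNF6KO arrays. The change was 0.07 ± 0.24, with an interval of -0.48 to 0.62 (adjusted p = 0.968), which spans 0.717-fold to 1.54-fold of WT. Ces1g, whose loss raises blood lipids in mice, had 12.03, 11.16, 11.76 and 11.88 in HNF6KO and 11.75, 11.46, 11.42 and 11.05 in WT. Here HNF6KO array 2 lay within the WT range, and the change was 0.29 ± 0.20 (interval -0.16 to 0.74, adjusted p = 0.728). It was 0.17 without WT array 4, 0.18 without HNF6KO array 1 and 0.47 without HNF6KO array 2. For both genes the sign turned across the array split, though for Ces1g only to a value near 0. Within arrays 1 and 2 the change was -0.31 for Ces1d and -0.01 for Ces1g, and within arrays 3 and 4 it was 0.46 and 0.59. That difference across the split was not tested.

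In family 2, Ces2e had the smallest p of all members. Its log2 values were 10.94, 10.45, 10.93 and 11.17 on HNF6KO arrays 1 to 4, against 10.51, 10.24, 10.47 and 10.04 on WT arrays 1 to 4. All but HNF6KO array 2 lay above every WT array. The change was 0.55 ± 0.16, or 1.47-fold, with an interval of 0.20 to 0.91 (limma, unadjusted p = 0.00661, adjusted p = 0.267). Without HNF6KO array 2 it was 0.70, the smallest adjusted p of any member among the fits that left out 1 array (0.0819). The related Ces2a had 11.51, 11.44, 10.59 and 11.26 in HNF6KO and 11.28, 11.04, 11.15 and 10.32 in WT. One array of each group was low, HNF6KO array 3 and WT array 4, and the change was 0.25 ± 0.25 (interval -0.31 to 0.81, adjusted p = 0.838). Single arrays moved Ces2a, which was 0.04 without WT array 4, 0.15 without HNF6KO array 1 and 0.45 without HNF6KO array 3. With array quality weights its sign turned (-0.02).

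The neighbours Ces3a and Ces3b, which encode closely related liver esterases, had changes of about the same size and opposite sign. Ces3a had log2 values of 12.78, 12.42, 12.56 and 12.67 on HNF6KO arrays 1 to 4, against 12.96, 12.87, 12.81 and 12.81 on WT arrays 1 to 4. Every HNF6KO array was below every WT array, but HNF6KO array 1 and WT arrays 3 and 4 were only just apart. After quantile normalization or cyclic loess the groups of Ces3a overlapped. The change was -0.26 ± 0.08, or 1.19-fold lower (interval -0.44 to -0.08, limma, unadjusted p = 0.0107, adjusted p = 0.322). Ces3b had 12.63, 12.26, 12.31 and 12.39 in HNF6KO, against 12.08, 12.15, 12.09 and 12.20 in WT. Every HNF6KO array was above every WT array, and the change was 0.27 ± 0.08, or 1.20-fold (interval 0.09 to 0.45, unadjusted p = 0.00847, adjusted p = 0.294). The WT arrays of both genes were close together (SD 0.07 for Ces3a and 0.06 for Ces3b, n = 4), and the HNF6KO arrays less so (SD 0.15 and 0.16, n = 4).

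**Figure D2:**
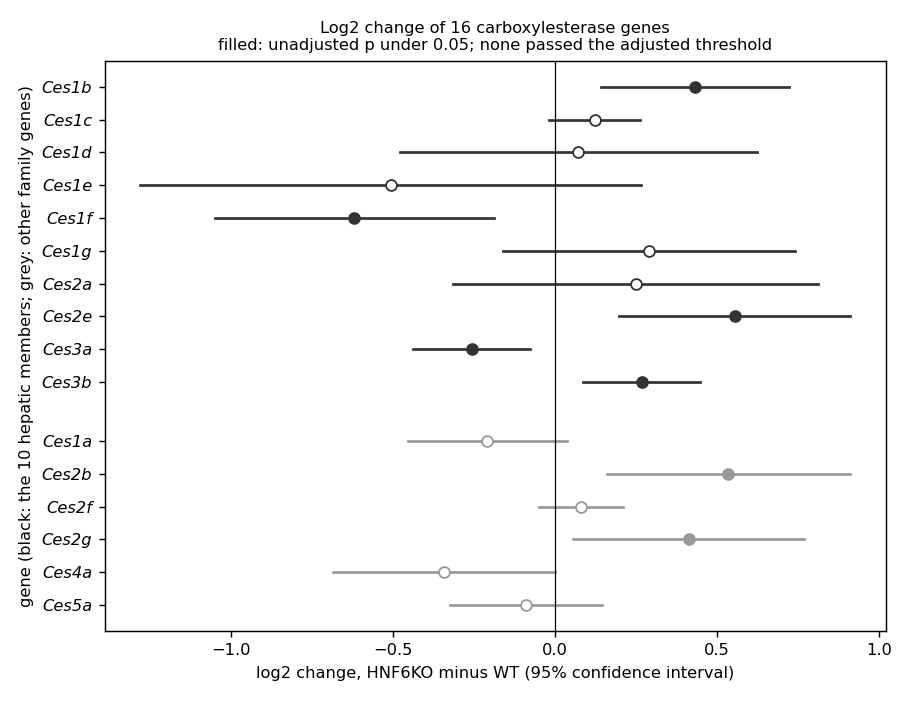
Log2 change between HNF6KO and WT livers (x axis, with 95% confidence interval) of the 10 members in black and of 6 other family genes in grey, down the page by symbol. Filled points have an unadjusted p under 0.05, as Ces1b, Ces1f, Ces2e, Ces3a and Ces3b do, and none of the 16 passed after adjustment.

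The 5 members with an unadjusted p under 0.05 kept their sign in all 21 alternative fits, and none of the 10 passed in any of them. These 5 were picked by their p on the same arrays, so a kept sign or p in such refits is no separate support. Several fits, such as the replicate block and the array split as a term, returned the same change, so their sign could not differ. Ces1f and Ces3b stayed under an unadjusted p of 0.05 in 21 of 21 fits, and Ces1b, Ces2e and Ces3a in 20 of 21, the exception being the fit within arrays 1 and 2 alone. With the array split as a term, a fit chosen from earlier results of these data, the adjusted p was 0.0784 for Ces1f, 0.147 for Ces2e, 0.154 for Ces1b, 0.175 for Ces3b and 0.188 for Ces3a. Within arrays 1 and 2 and within arrays 3 and 4 the changes were -0.70 and -0.54 for Ces1f, 0.32 and 0.79 for Ces2e, 0.49 and 0.37 for Ces1b, 0.33 and 0.21 for Ces3b, and -0.32 and -0.19 for Ces3a. Each of these 5 therefore had the same sign on both sides of the split.

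**Figure D3:**
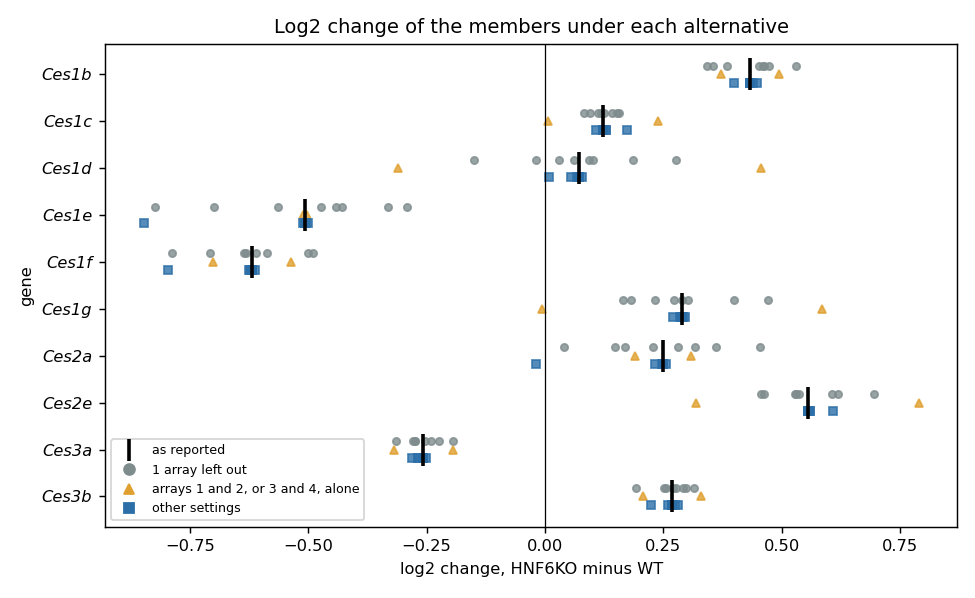
Log2 change of each member (x axis) as reported (black bar), with 1 array left out (grey circles), within each side of the array split (orange triangles) and under the other settings (blue squares). Ces1b, Ces1f, Ces2e, Ces3a and Ces3b stay on their side of 0, while Ces1d, Ces1g and Ces2a cross it at least once.

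The wider carboxylesterase family, of which 6 of 10 further listed genes were measured, also had 0 genes past the threshold and 2 of 6 higher at an unadjusted p of 0.05, where 0.399% of all genes passed and 4.3% were higher at that p. Both were of family 2. Ces2b had log2 values of 7.33, 6.74, 6.82 and 7.51 in HNF6KO, against 6.45, 6.66, 6.67 and 6.46 in WT, and the groups did not overlap. Its change was 0.54 ± 0.17 (limma, adjusted p = 0.318). Ces2g had 10.23, 9.73, 10.51 and 10.51 in HNF6KO and 9.87, 9.73, 9.86 and 9.87 in WT, so HNF6KO array 2 stood with the WT arrays. The change of Ces2g was 0.41 ± 0.16 (adjusted p = 0.434), and it passed in 2 fits, without HNF6KO array 2 (0.58, adjusted p = 0.0391) and within arrays 3 and 4 (0.65, adjusted p = 0.0305). Ces1a, Ces4a and Ces5a had changes of -0.21, -0.34 and -0.09, and Ces2f one of 0.08. Single arrays moved all 4 by over 1.5 times: Ces1a was -0.10 without WT array 1 and Ces4a -0.19 without WT array 4, Ces5a ran from -0.19 (without HNF6KO array 1) to -0.02 (without HNF6KO array 3), and Ces2f from 0.05 (without HNF6KO array 4) to 0.12 (without HNF6KO array 2). With Ces2a and Ces2e, the 5 measured family 2 genes all had a change above 0, except Ces2a with array quality weights (-0.02). Ces2b and Ces2f were dim in WT livers (means 6.56 and 5.80, against a median of 6.96 over all genes). Since close paralogs can share signal, the 5 may not be separate observations.

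On chromosome 8 the carboxylesterases fall into one run of Ces1 genes and Ces5a and another of Ces2, Ces3 and Ces4a. The 3 nearest measured genes on each side of both runs, 12 genes in all, had changes between -0.15 and 0.10. Of these, 0 had an unadjusted p under 0.05, where 9.51% of all genes did, so among 12 genes the count is near that share. The expression levels of the flanking genes were not compared with those of the carboxylesterases, and dim genes can show small changes for that reason alone. Gene order was read from the RefSeq gene table. In the order of the first run the changes were -0.21 at Ces1a, 0.43 at Ces1b, 0.12 at Ces1c, 0.07 at Ces1d, -0.51 at Ces1e, -0.62 at Ces1f, 0.29 at Ces1g and -0.09 at Ces5a.

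**Figure D4:**
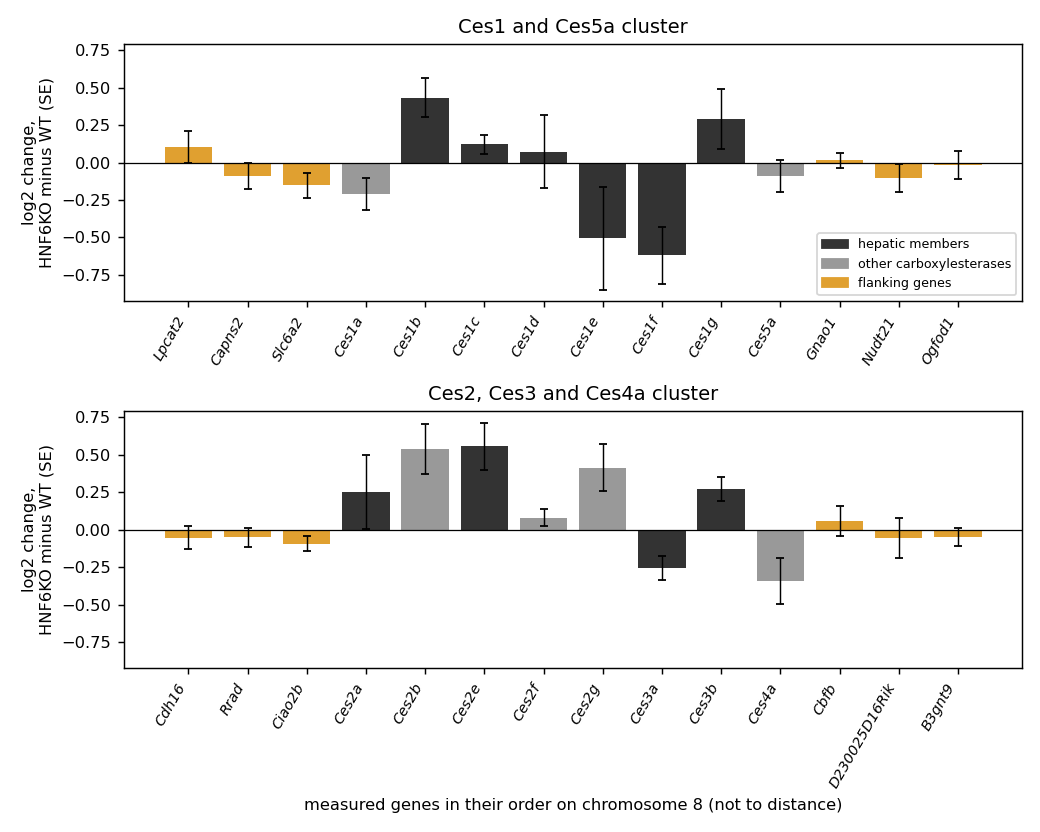
Log2 change (y axis, bars with SE) of measured genes in their order on chromosome 8, for the Ces1 and Ces5a run above and the Ces2, Ces3 and Ces4a run below. Members are black, other carboxylesterases grey and flanking genes orange. The flanking genes stay between -0.15 and 0.10, and Ces1e with Ces1f, and Ces3a, lie below 0 beside neighbours above it.

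Within groups the members varied together to very different degrees. Over the 45 pairs of members, the Pearson r of the deviations from the group means on the 8 arrays ran from -0.59 to 0.98, with a median of 0.41 and 38 pairs above 0. These are descriptions over arrays that share the split described above. Ces1e, Ces1f and Ces2a formed the closest trio (r = 0.98 for Ces1e and Ces1f, 0.96 for Ces1e and Ces2a, 0.95 for Ces1f and Ces2a), and all were lowest on array 3 in HNF6KO and on array 4 in WT. WT array 4 was also the lowest WT array for Ces1c, Ces1d, Ces1g, Ces2e and Ces3a, and HNF6KO array 3 the lowest of its group for Ces1b. The changes of the trio were nonetheless of both signs (-0.51, -0.62 and 0.25). Ces3a and Ces3b varied together within groups (r = 0.71) although their changes were opposite. The lowest values were those of Ces3b with Ces1c (-0.59) and with Ces1b (-0.53).

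**Figure D5:**
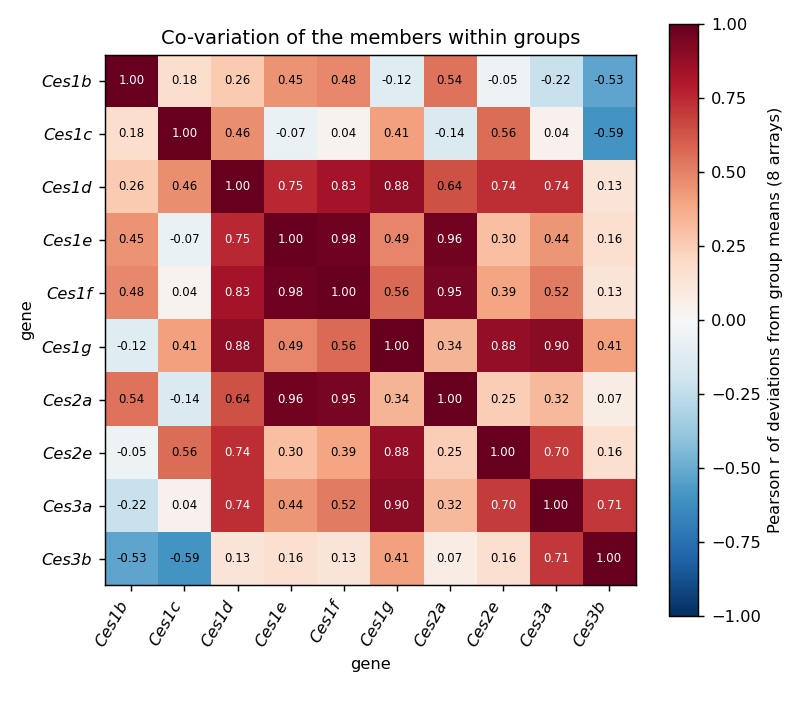
Pearson r, on a colour scale from -1 to 1, between each pair of members for deviations from the group means over 8 arrays. The red block of Ces1e, Ces1f and Ces2a reaches 0.98, and the blue cells of Ces3b with Ces1b and Ces1c reach -0.59.

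By the same measure, the genes most like Ces2e among the 19539 others were Arnt (r = 0.99), Slc46a1 and Foxk1 (both 0.98), whose own changes were 0.23, -0.10 and -0.11. Those most like Ces1b were Slc2a3 (r = 0.98), Vmn1r19 (0.97) and Olfr1184 (0.96), with changes of -0.05, -0.01 and -0.01. None of the 6 passed between genotypes. With 8 arrays and so many candidates, values this high are the top of a long list and are given only as a description.

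Among other liver hydrolases and the regulators known for carboxylesterase genes, 1 gene passed. Of 24 measured genes of ester hydrolysis (25 listed), 1 rose and 0 fell, where 0.399% of all genes passed, with a median change of -0.03. The riser was Lpl, the lipoprotein lipase of the vessel wall, at 9.93, 10.61, 9.46 and 9.63 in HNF6KO, against 7.05, 7.55, 7.67 and 7.73 in WT (log2 change 2.41, limma, adjusted p = 0.00773, and 0.122 in the plain two-sample test). Of 12 measured regulators (13 listed), 0 passed and 0 had an unadjusted p under 0.05 in limma, with a median change of -0.08. Among all genes 9.51% met the unadjusted rule, so among 12 genes a count of 0 is near that share. The 4 with the smallest p were Cebpa, a hepatocyte factor (-0.21, adjusted p = 0.548), the xenobiotic receptor gene Nr1i3 (-0.33, adjusted p = 0.714), the oxidative stress factor Nfe2l2 (0.22, adjusted p = 0.781) and Hnf4a (-0.19, adjusted p = 0.821).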

How the data were processed

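The 8 arrays (4 HNF6KO, 4 WT) were grouped by genotype label. The authors deposited 1 value per probe set and array, read here as log2 since values run from 3.69 to 14.11. Neither the log base nor the normalization is stated in what was used here. Total RNA was extracted with Trizol and labelled with biotin, per the labels' protocols. Of 22725 probe sets, 21113 had 1 symbol, 43 several and 1569 none. The brightest single-symbol probe set by mean over 8 arrays stood for a gene, which left 19540 genes.

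The genotypes were compared with limma 3.58.1 under R 4.3.3 (lmFit, eBayes, no filter), Benjamini-Hochberg over all genes, threshold 0.05, with moderated SE and 95% confidence intervals per gene. The number of arrays limits the precision. Members and lists were chosen with earlier results of these data known. The rule for named genes takes every carboxylesterase on the array, list members past the threshold or otherwise the 4 with the smallest p, Onecut1, and the 3 genes most like each of the 2 members with the smallest p. Alternatives were other normalizations, a filter at the 40th percentile, variance models, array weights, a plain two-sample test, probe set choice, a replicate block, the array split and each array left out. The fit was tested on simulated data. Promoters were aligned with Biopython 1.88 (global, free ends).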

Additional observations from a re-analysis of the deposited data

Results flagged for a closer look

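Among 32 groups of 4 arrays (16 carboxylesterase genes in HNF6KO and in WT), 2 had 1 array far from the other arrays of its group: its gap to the nearest of them, divided by the group's range, was above Dixon's 95% critical value. Chance flags about 1 in 20 groups. Ces1b on HNF6KO array 2 was 11.03, with the other HNF6KO arrays between 10.64 and 10.70 (ratio 0.844), and without it the log2 change of Ces1b was 0.34 (limma, adjusted p = 0.412). Ces2g on WT array 2 was 9.73, with the other WT arrays between 9.86 and 9.87 (ratio 0.910).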

How the results depend on the processing

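No member passed the adjusted threshold in any of the 21 alternative fits, and 5 had an unadjusted p under 0.05 as reported. The lowest adjusted p of a member in any fit was 0.0744 (Ces2e, array quality weights), and under those weights Ces3a (0.0761) and Ces1f (0.0856) were also below 0.1. The number of members with an unadjusted p under 0.05 ran from 4 within arrays 1 and 2 to 7 within arrays 3 and 4 and with array quality weights, where the share of all genes was 9.75%, 17.1% and 19.5% in turn. Members whose groups did not overlap numbered 1 after quantile normalization or cyclic loess (6.58% and 6.70% of all genes), against 3 as deposited (5.67%), a count that, like the one at an unadjusted p, was compared across settings only after the data were seen. Of the 6 other carboxylesterases 2 had an unadjusted p under 0.05, where 9.51% of all genes did, and 1 passed within arrays 3 and 4. With 1 array left out between 0 and 1 passed. Of the 24 other ester hydrolases 3 had an unadjusted p under 0.05, against the same 9.51%, and 0 passed the plain two-sample test after adjustment. Signs turned for 4 genes that never passed. Within arrays 1 and 2 the log2 change was -0.31 for Ces1d, -0.0066 for Ces1g and 0.094 for Ces5a, and with array quality weights it was -0.018 for Ces2a. With 1 array left out Ces1d ran from -0.15 (without WT array 4) to 0.28 (without WT array 1). The cause of these differences was not tested.

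The count over all genes was 202 with array quality weights, 2 with the plain test, 245 with the array split as a term, 22 within arrays 1 and 2, and 16 to 79 with 1 array left out. It was 14 at an adjusted p of 0.01, 162 at 0.1 and 1859 at an unadjusted p of 0.05. The array numbers are shared by label only. Same-numbered arrays had correlations of 0.44, 0.17, 0.51 and 0.02 between their deviations from the group means, and HNF6KO arrays 2 and 4 correlated best with another number in WT. With the replicate block 125 genes and 0 members passed, the lowest adjusted p of a member being 0.139 (Ces1f).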
